A study of Mus musculus with 24 samples.

Results

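Tubules with high and with low levels of proximal tubule transcripts were compared in a set of microdissected mouse cortical collecting ducts. A proximal score was computed for each of 24 single-tubule libraries as the mean log2(TPM + 1) of Kap, Lrp2 and Slc34a1, where TPM gives each gene's share of a library after division by transcript length. Within each genotype the 4 tubules with the highest and the 4 with the lowest score were taken, which gave 8 high-score and 8 low-score tubules, 16 of the 24, and left 8 middle tubules out of the comparison. The classes were therefore chosen on measured values of these same libraries, and the levels of the 3 score genes are given as a description only. The comparison asks which transcripts follow the proximal score and which stay at the same level in tubules with little of it.

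Each of 4 wild-type (WT) and 4 beta-catenin mutant (MUT) animals gave 3 tubules. The labels' protocol gives the mutant as Thr551Ala/Ser552Ala, while the legend of the deposited table names Ser552Ala alone. All mice were male C57BL/6 animals, 10 weeks old, on normal chow. The treatment field reads Vehicle for every tubule and the protocol describes no treatment, so both classes share whatever was given. Tubules are named by mouse and tubule number, so WT3_2 is the second tubule of the third WT mouse. High-score tubules came from 5 mice and low-score tubules from 5 mice, and only mouse WT3 (2 high and 1 low) and mouse MUT3 (1 of each) held both classes. Mouse MUT1 gave 3 low-score tubules and mouse WT2 gave 2, so that class and mouse are in large part confounded.

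The proximal tubule is the first segment of the nephron after the glomerulus. Its brush border takes back filtered sodium, phosphate, glucose, amino acids and small proteins, and its cells make glucose and secrete organic anions and cations. Its convoluted part begins with the S1 segment, which has the high-capacity glucose transporter, and its straight part ends with the S3 segment. The cortical collecting duct lies among these tubules in the cortex and is made of principal cells, which reabsorb water and sodium, and intercalated cells, which handle acid and base. In bulk RNA of a whole tubule, fewer cells of a type and less RNA per cell cannot be told apart, and neither can RNA from attached or adhering material and RNA made by the duct cells themselves.

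The libraries of both classes resembled each other in general measures. Genes at 1 TPM or more numbered 14090 to 15870 in the high-score and 13572 to 15862 in the low-score tubules, and the 10 most abundant genes took 7.69% to 9.49% and 7.57% to 9.31% of all TPM. Sequencing depth is unknown, because TPM keeps none. The duct identity was plain in every library, since the vasopressin-regulated water channel Aqp2 reached at least 9501 TPM in all 24 tubules. Among the score genes Kap reached up to 3840 TPM, Slc34a1 601 TPM and Lrp2 9.77 TPM, all in tubule WT3_1. The genes of all proximal tubule lists used below summed to 12135 TPM in that tubule and to 1934 to 2604 TPM in the low-score tubules.

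Kap, which encodes a kidney androgen-regulated protein of the proximal tubule in mice, ran from 53.9 TPM (MUT4_3) to 3840 TPM (WT3_1) in the high-score tubules, with a median of 394 TPM, and from 9.00 to 150 TPM in the low-score ones, with a median of 29.0 TPM. The classes overlapped for Kap, because the high-score tubules WT3_2, MUT3_3 and MUT4_3 were below the low-score tubule WT3_3. Lrp2, the endocytic receptor megalin, was at 0.92 to 9.77 TPM in the high and 0.02 to 0.22 TPM in the low class, with no overlap. Slc34a1, the main sodium-phosphate cotransporter of the brush border, was at 3.18 to 601 TPM (median 75.2) against 0.19 to 4.98 TPM (median 1.36), where MUT2_3 alone among the high-score tubules fell below the highest low-score tubule. The score itself ran from 3.59 to 8.19 in the high and from 1.20 to 3.33 in the low class.

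The boundaries between classes were narrow in places. In WT the lowest high-score tubule scored 5.23 and the next middle tubule 4.32, and the highest low-score tubule scored 3.33 against 3.80 for the next middle one. In MUT the corresponding values were 3.59 against 3.17 and 2.32 against 2.73. WT middle tubules at 4.32 and 4.30 scored above the MUT high-score tubules MUT2_3 (3.66) and MUT3_3 (3.59), because classes were taken within genotype.

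Of 15010 genes tested without the score genes, 48 were higher in the high-score tubules and 3 were lower at an adjusted p under 0.05 (limma on log2(TPM + 1) with genotype as covariate and mouse as random effect, two-sided, Benjamini-Hochberg), which is 0.32% and 0.02% of the genes tested. At an unadjusted p under 0.05 there were 577 higher genes (3.84%) and 884 lower genes (5.89%), but with median-ratio scaling 738 of 1338 such genes were higher. The median log2 difference over all genes was -0.03. In 51 genes, or 0.34%, all 8 high-score tubules were above all 8 low-score tubules, and in 5 genes, or 0.0333%, they were all below. Of the 48 higher genes, 28 did not overlap between the classes. Of the 48, 24 belonged to the proximal tubule lists, which hold 108 of the 15010 genes tested, and none to a list of another cell type. Those other lists are short, so that none called there is near the share of 0.32% over all genes. Because the score genes are themselves proximal transcripts, genes that vary with them were bound to rank high, and the counts show which transcripts do so and how strongly.

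The 48 higher genes differed by a median of 2.37 on the log2(TPM + 1) scale, from 0.23 to 3.87, and the ratio of class means had a median of 16.9. In 28 of them the low-score mean was under 1 TPM, in 17 it lay between 1 and 10 TPM, and in 3 it was 10 TPM or more. Of the 48 genes, 42 had a mean of 1 TPM or more in the middle tubules. The others reached the filter only through the high class, which favoured a large difference in advance. The 8 middle tubules, which did not enter the fit, had a mean between the means of the outer classes for 48 of the 48 genes, against 42.2% of all genes tested. Their intermediate scores and the wide gaps between the class means of most of the 48 favoured this in advance. In mouse WT3 both high-score tubules were above the low-score tubule of the same animal in 48 of the 48 genes, against 22.5% of all genes, and in mouse MUT3 the high-score tubule was above the low-score one in 48 of 48, against 49.5%. These counts describe genes that the same tubules had selected. With the mouse as a fixed block no gene passed limma's threshold in either direction (lowest adjusted p 0.761, 967 genes at an unadjusted p under 0.05), and the median of the 48 was then 2.15. In that fit the difference between classes comes from mice WT3 and MUT3 alone, which held both classes. The same holds for every value with a fixed block given below.

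The result also rested on few animals. Without tubule WT3_3 no gene passed in limma (1318 at an unadjusted p under 0.05), and without mouse WT2, MUT1 or MUT4 none did (1081, 1086 and 1220), while without WT3_1 and WT3_2, an alternative chosen after seeing the data, 2 genes passed. All 48 genes, which had been selected on the full set of these tubules, kept their direction in each of these fits. Their median was 1.87 without WT3_1 and WT3_2. Where all calls were lost the median stayed near the full value of 2.37, at 2.38 without WT3_3 and at 2.26, 2.49 and 2.29 without mouse WT2, MUT1 and MUT4.

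Among all proximal tubule lists together, 108 of 130 genes were tested, 101 were higher in the high-score tubules, 24 of these passed the threshold and 88 had an unadjusted p under 0.05, with a median log2 difference of 1.50. None was lower at either threshold. Several of these genes reached a mean of 1 TPM only through the high-score tubules. Of the 87 with a mean of 1 TPM or more in the middle tubules, 22 passed. With the score as a continuous term over all 24 tubules, 255 of all genes rose with it (1.7%) and 25 fell (0.167%), and 77 of the 108 proximal genes were among the former.

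**Figure D1:**
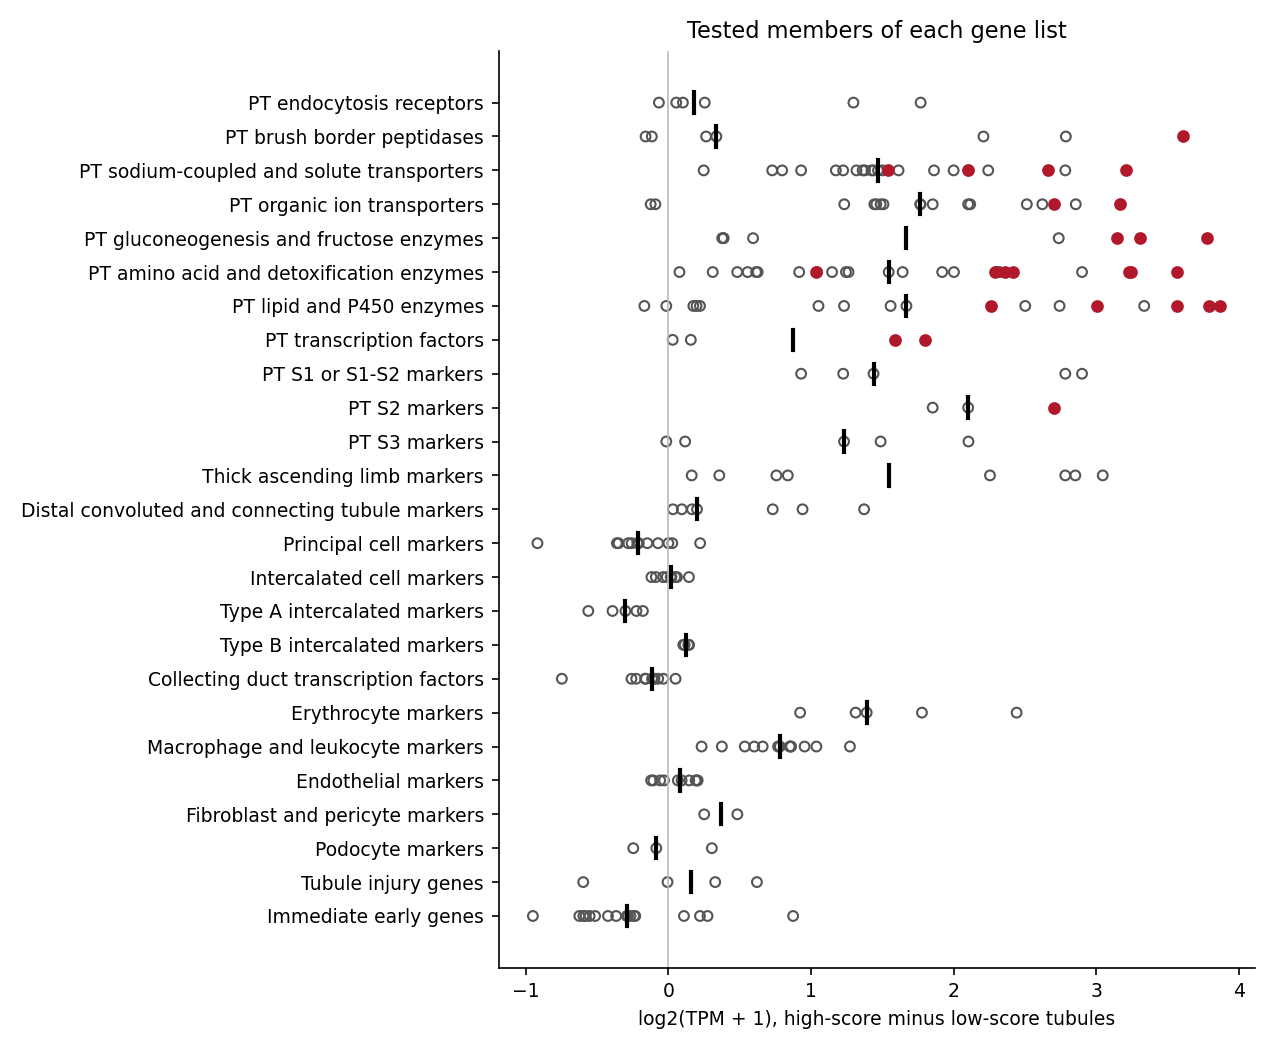
Difference in log2(TPM + 1) between high-score and low-score tubules for the tested members of 25 gene lists, 1 circle per gene, filled where the adjusted p was under 0.05, with the list median as a black bar. Filled circles appear only in proximal tubule (PT) lists, where the other lists are short and 0.32% of all genes passed upwards. The list of principal cell markers has a median of -0.21.

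Receptors and adaptors of endocytosis were the proximal list with the least difference. Of 6 tested members 5 were higher and none passed the threshold, with a median log2 difference of 0.18. Dab2, an adaptor of megalin uptake, was at 269 TPM in the high and 250 TPM in the low class (log2 difference 0.055, SE 0.10). Lrpap1, the chaperone of megalin, was at 181 and 152 TPM (log2 difference 0.25, SE 0.072, limma adjusted p 0.207). Amn, the membrane anchor of cubilin, was at 8.81 and 0.941 TPM, which was also past no threshold (log2 difference 1.77, limma adjusted p 0.171).

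Brush border peptidases were split, with 5 of 7 tested members higher, 1 past the threshold and a median log2 difference of 0.34. Ggt1, which cleaves glutathione at the outer membrane, was at 214, 24.1, 51.6 and 23.9 TPM in the WT and 17.8, 13.8, 22.4 and 9.02 TPM in the MUT high-score tubules, and between 0.50 and 3.66 TPM in the 8 low-score tubules. Its classes did not overlap, and it rose by a log2 difference of 3.61 (SE 0.45, limma adjusted p 0.0129). Cltrn, the collectrin that carries amino acid transporters to the surface, ran from 7.65 to 312 TPM against 1.51 to 10.9 TPM (limma adjusted p 0.117). Mme, the endopeptidase neprilysin, was at 94.8 TPM in the high and 104 TPM in the low class, and Dpp4, a dipeptidyl peptidase of the brush border, was at 19.7 and 21.4 TPM.

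Solute transporters were higher in 23 of 23 tested members, of which 4 passed the threshold, with a median log2 difference of 1.47. Pdzk1, the scaffold that holds brush border transporters including the product of Slc34a1, was at 5.13 to 80.9 TPM in the high and 0.50 to 5.04 TPM in the low class, and rose by 3.20 (SE 0.52, limma adjusted p 0.0166). Slc3a1, the heavy chain of the cystine transporter, was at 1.53 to 41.6 TPM against 0.07 to 0.95 TPM (log2 difference 2.66, limma adjusted p 0.0253). Slc1a1, a transporter of acidic amino acids, was at 5.47 and 0.243 TPM on average, and Slc6a20b, a proline-type transporter, at 2.90 and 0.155 TPM, and both passed, although Slc6a20b, at 0.336 TPM in the middle tubules, entered the test only through the high class. With the filter on the middle tubules 3 of 14 passed. Slc34a3, another sodium-phosphate cotransporter of this segment, was at 23.3 TPM in MUT4_3 and 20.9 TPM in WT3_2, at 2.69 TPM or less in the other high-score tubules, and did not pass (limma adjusted p 0.512).

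Of 17 organic ion transporters 15 were higher and 2 passed, with a median log2 difference of 1.77. Only 10 of them had a mean of 1 TPM or more in the middle tubules, of which 2 passed, with a median of 2.31. The others entered the test only through the high class. Slc47a1, which exports organic cations into the urine, was at 2.21 to 58.2 TPM in the high and 0.02 to 0.58 TPM in the low class (log2 difference 3.17, SE 0.48, limma adjusted p 0.0129). Slc22a12, the urate transporter, was at 1.68 to 79.6 TPM against 0.00 to 1.24 TPM (log2 difference 2.70, limma adjusted p 0.0366). Neither gene overlapped between classes. Abcc4, an export pump for organic anions, was at 18.9 and 20.0 TPM.

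Enzymes made up 15 of the 24 proximal-list genes that passed. Of 8 enzymes of gluconeogenesis and fructose use 8 were higher and 3 passed, of 25 enzymes of amino acid use and detoxification 25 were higher and 7 passed, and of 17 enzymes of lipid use and cytochromes P450 15 were higher and 5 passed, with medians of 1.66, 1.54 and 1.67. At a mean of 1 TPM or more in the middle tubules were 8, 22 and 16 of these enzymes, of which 3, 7 and 5 passed. Slc27a2, which activates and takes up long-chain fatty acids, had the largest log2 difference of all genes that passed, 3.87 (SE 0.57, limma adjusted p 0.0129). It was at 9.74 TPM in MUT3_3 and 452 TPM in WT3_1, with the other 6 high-score tubules between 29.2 and 66.5 TPM, and at 1.14 to 3.77 TPM in the low class. Every high-score tubule was therefore above every low-score tubule for this gene.

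Acsm2, an acyl-CoA synthetase for medium-chain acids, was at 10.4 to 645 TPM against 1.29 to 11.2 TPM (log2 difference 3.79, SE 0.66, limma adjusted p 0.0222). Only MUT3_3 among the high-score tubules fell within the low class. Miox, which opens the inositol ring, was at 24.6 to 516 TPM against 2.74 to 33.4 TPM (log2 difference 3.57), and Fbp1, the fructose bisphosphatase of gluconeogenesis, at 8.96 to 198 TPM against 0.70 to 13.8 TPM (log2 difference 3.31). Pck1, the enzyme that commits carbon to gluconeogenesis, was at 9.13 to 101 TPM in the high and 0.62 to 6.10 TPM in the low class without overlap (log2 difference 3.15, SE 0.42, limma adjusted p 0.0129).

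The largest ratio of class means among the genes that passed belonged to Ugt3a2, a glycosyltransferase of detoxification, at 33.0 against 0.404 TPM (81.8-fold). Cyp2j5, a P450 of arachidonic acid, followed at 26.8 against 0.333 TPM (80.6-fold). Akr1c21, a steroid reductase, rose by 3.24 (SE 0.50) and Keg1, a kidney-expressed acyltransferase-like gene, by 3.23 (SE 0.56). Aspdh and Cbs, of amino acid metabolism, rose by 2.29 and 1.96, and Qprt, which makes a precursor of NAD from quinolinate, by 1.59, each with a limma adjusted p of 0.0129. Calml4, a calmodulin-like protein of the brush border, was at 23.1 TPM in the high and 4.09 TPM in the low class.

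Gpx3, the glutathione peroxidase that the proximal tubule secretes into plasma, shows how uneven the high class was. It was at 1593, 4613, 323 and 412 TPM in WT3_1, WT3_2, WT4_1 and WT4_3 and at 171, 144, 588 and 3116 TPM in MUT2_3, MUT3_3, MUT4_1 and MUT4_3, against 59.0 to 255 TPM in the low class. The classes overlapped, and it did not pass (log2 difference 2.32, SE 0.69, limma adjusted p 0.235).

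Of 4 proximal transcription factors 4 were higher and 2 passed, both of them nuclear receptors (median log2 difference 0.87). Of the 3 with a mean of 1 TPM or more in the middle tubules 1 passed, with a median of 0.16, since Hnf4a reached the filter only through the high class. Hnf4a, a master regulator of proximal genes, was at 0.82 to 6.80 TPM in the high and 0.05 to 0.63 TPM in the low class (log2 difference 1.59, SE 0.29, limma adjusted p 0.0293). Nr1h4, the bile acid receptor, was at 0.62 to 10.1 TPM against 0.00 to 0.55 TPM (log2 difference 1.80, SE 0.32, limma adjusted p 0.0253). Neither overlapped between classes. Ppara, the fatty acid receptor, was at 8.94 and 7.71 TPM and did not pass.

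The RefSeq promoter windows of the genes that passed were searched for the Hnf4a-type motif CAAAGTCCA on both strands. Windows run from 250 bases before to 50 bases after the start of a gene (build GRCm38.p6). A window was found for 41 of the 48 higher genes and for 10382 of the genes tested. The motif occurred in 4 of the 41 (9.76%) and in 0.482% of the 10382. The related motif CAAAGTTCA, which in Aspdh overlaps the end of the first, occurred in 1 of the 41 (2.44%) and in 0.337% of the 10382. A further motif that was searched had no match in either set. The 4 windows are shown with CAAAGTCCA, or its reverse complement in Pipox, in capitals. They lie at chr3:96829815-96830114 (plus strand), chr7:44465185-44465484 (plus strand), chr11:77893823-77894122 (minus strand) and chr17:85028097-85028396 (plus strand), and the motif begins at 14, -52, 15 and -39, counted from the first base of the gene as 0.
Pdzk1: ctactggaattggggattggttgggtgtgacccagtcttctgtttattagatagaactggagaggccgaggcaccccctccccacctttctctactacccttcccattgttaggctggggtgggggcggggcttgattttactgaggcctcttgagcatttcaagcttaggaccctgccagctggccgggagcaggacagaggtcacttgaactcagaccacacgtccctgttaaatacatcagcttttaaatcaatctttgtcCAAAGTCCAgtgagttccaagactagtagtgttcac
Aspdh: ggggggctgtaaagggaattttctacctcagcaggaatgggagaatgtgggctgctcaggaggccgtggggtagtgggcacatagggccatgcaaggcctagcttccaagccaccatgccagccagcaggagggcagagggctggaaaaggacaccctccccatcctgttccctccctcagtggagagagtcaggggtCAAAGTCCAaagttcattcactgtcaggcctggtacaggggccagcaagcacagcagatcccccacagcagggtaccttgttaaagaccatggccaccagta
Pipox: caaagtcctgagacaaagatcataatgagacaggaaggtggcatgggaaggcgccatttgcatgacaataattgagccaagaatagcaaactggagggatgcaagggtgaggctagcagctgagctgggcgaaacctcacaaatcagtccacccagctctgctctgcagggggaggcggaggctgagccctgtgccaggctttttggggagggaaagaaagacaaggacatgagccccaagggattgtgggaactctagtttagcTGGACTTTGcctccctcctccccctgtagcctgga
Slc3a1: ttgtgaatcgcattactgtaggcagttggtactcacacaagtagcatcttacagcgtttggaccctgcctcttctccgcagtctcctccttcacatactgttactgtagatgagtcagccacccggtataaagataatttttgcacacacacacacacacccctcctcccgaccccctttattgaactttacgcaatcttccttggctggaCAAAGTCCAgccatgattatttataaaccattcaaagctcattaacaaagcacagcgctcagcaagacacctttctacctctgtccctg
These matches are a description of letters. Binding was not measured, and whether the genes share a regulator was not tested. Pipox, which oxidizes pipecolic acid, was at 10.4 TPM in the high and 0.835 TPM in the low class (log2 difference 2.23, limma adjusted p 0.0179).

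The high-score tubules differed in which proximal segment markers they contained. Slc5a2, the glucose transporter of the early S1 segment, was at 170 TPM in WT3_2 and 142 TPM in MUT4_3 and at 9.67 TPM or less in the other 6 high-score tubules. Slc7a13, an amino acid transporter of the late S3 segment, was lowest in these tubules among the high class, with 0.52 TPM in WT3_2 and 1.03 TPM in MUT4_3, but 53.4 TPM in WT3_1, 11.7 in WT4_3, 8.38 in WT4_1, 8.37 in MUT4_1, 7.40 in MUT2_3 and 1.39 in MUT3_3. Spp2, a secreted phosphoprotein that was chosen after its values were seen, was at 168 and 128 TPM in WT3_2 and MUT4_3 and at 15.6 TPM or less in the other high-score tubules. Cyp2e1, a P450 of the straight part, was at 376 TPM in WT3_1 and between 1.45 and 32.2 TPM in the other high-score tubules.

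Kap was low in the tubules with most Slc5a2. The ratio of Kap to Slc34a1 was 0.209 in WT3_2 and 0.134 in MUT4_3, and between 6.04 and 76.5 in the other high-score tubules. In the low class it ran from 13.4 to 47.4. A score of Lrp2 and Slc34a1 kept 8 of the 8 high-score and 7 of the 8 low-score tubules. With it 70 genes passed upwards, of which 46 were among the 48. The shared tubules and score genes favoured that overlap in advance. A score of Kap alone kept 5 of the 8, dropping WT3_2, MUT3_3 and MUT4_3, and no gene passed in limma (1309 at an unadjusted p under 0.05).

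None of the 5 S1 markers passed, although 5 of 5 were higher (median log2 difference 1.44), 1 of 3 S2 markers passed (median 2.10), and none of 5 S3 markers did, with 4 higher (median 1.23, but 0.18 with the mouse as a fixed block, 0.60 in MUT alone and 0.67 over the 4 members at 1 TPM or more in the middle tubules). Of the S1 markers 3 and of the S2 markers 2 had a mean of 1 TPM or more in the middle tubules, with medians of 2.78 and 2.40. In the S3 list Slc22a30, an organic anion transporter, did not overlap between classes, at 3.80 and 0.224 TPM on average. At 0.256 TPM in the middle tubules, Slc22a30 entered the test only through the high class. Acsm3 was at 71.6 TPM in WT3_1 and 0.71 TPM in WT3_2, while the low-score tubule MUT3_2 had 9.65 TPM.

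**Figure D2:**
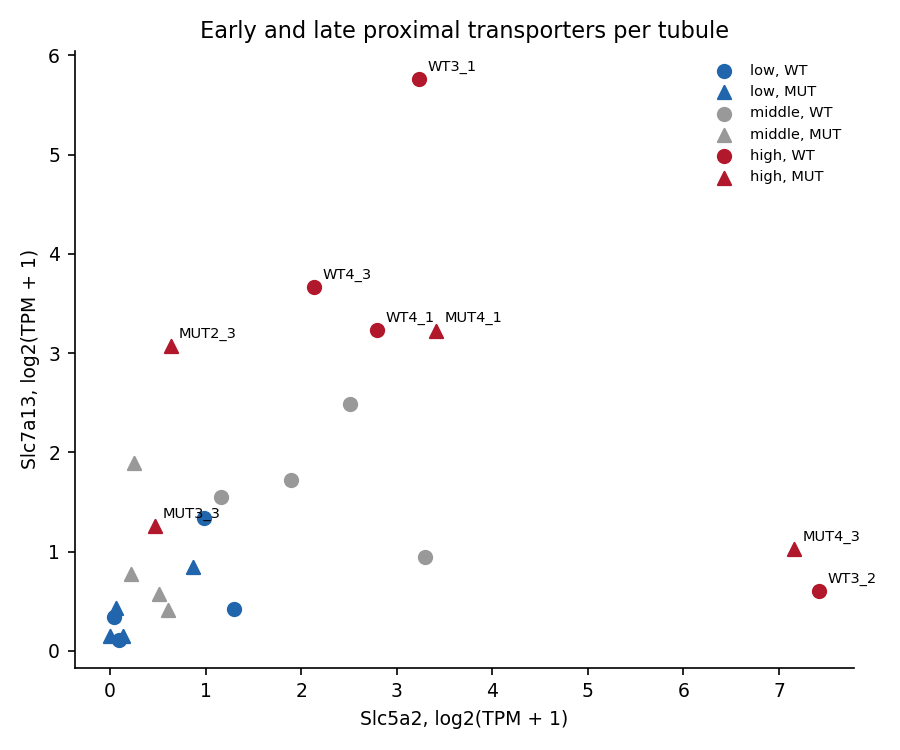
Slc5a2 against Slc7a13 as log2(TPM + 1), 1 point per tubule, coloured by score class and shaped by genotype, with high-score tubules named. WT3_2 (Slc5a2 170 TPM) and MUT4_3 (142 TPM) lie far along the Slc5a2 axis with little Slc7a13, and WT3_1 has the highest Slc7a13 at 53.4 TPM.

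Not every gene listed as proximal followed the score. Of the 108 tested, 68 had a low-score mean under 20% of the high-score mean, against 2.00% of all genes tested. A further 22 were between 20 and 80%, and 18 were at 80% or more, of which 15 had at least 10 TPM in the low class. Of all genes tested 89.5% were at 80% or more. Of the 108, 87 had a mean of 1 TPM or more in the middle tubules. The others reached the filter only through the high class, which favoured a share under 20% in advance. Cyp7b1, an oxysterol hydroxylase listed here as an S3 marker, was at 52.0 to 65.4 TPM in the high and 52.8 to 71.1 TPM in the low class (log2 difference -0.015, SE 0.062). Its level in the middle tubules averaged 52.9 TPM. Ces1d, a carboxylesterase, was at 208 and 185 TPM, Ephx2, an epoxide hydrolase, at 83.5 and 102 TPM, Atp11a, a phospholipid flippase, at 32.5 and 29.3 TPM and Clcn5, the endosomal chloride exchanger, at 27.3 and 27.8 TPM.

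Some genes lay between. Rida, a deaminase, was at 179 to 271 TPM against 146 to 193 TPM (log2 difference 0.31, SE 0.087, limma adjusted p 0.206), Sord, the sorbitol dehydrogenase, at 120 and 74.6 TPM on average, and Khk, which phosphorylates fructose, at 72.7 and 53.0 TPM. None of these passed. For such genes most of the level seen in the high-score tubules was also there in the low-score ones.

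**Figure D3:**
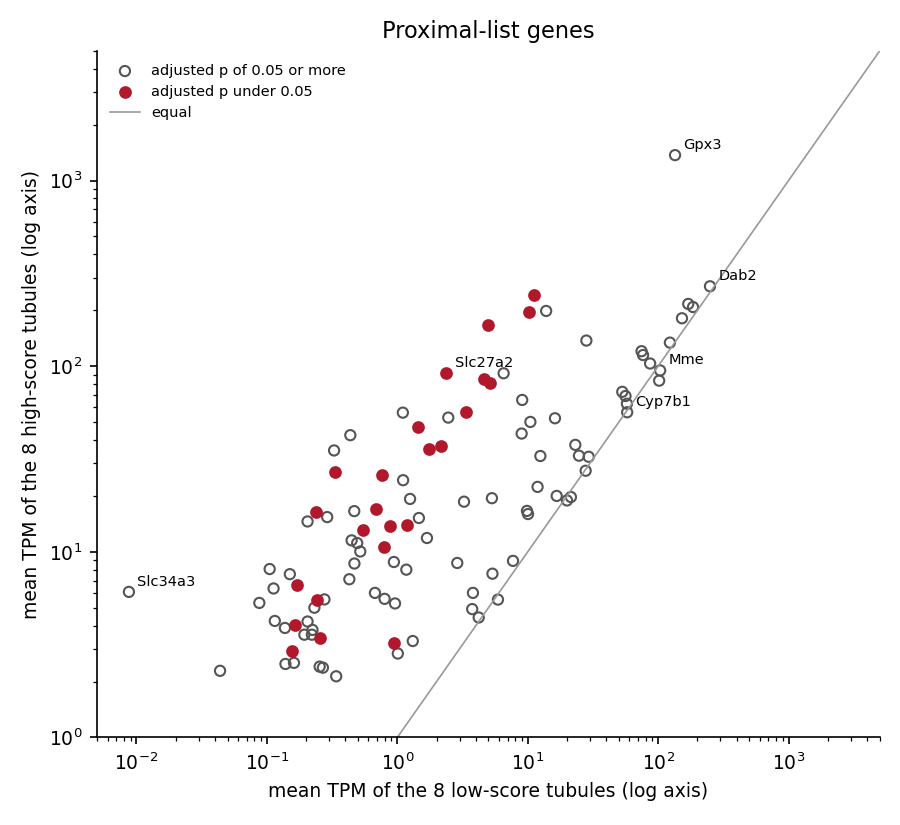
Mean TPM of the 108 tested proximal-list genes in the 8 low-score and the 8 high-score tubules, log axes, with the line of equality and genes at an adjusted p under 0.05 filled. Cyp7b1, Mme and Dab2 lie at the line, while Slc27a2 lies far above it.

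Outside the proximal lists, 24 genes passed upwards. They include Ugt3a2, Cbs, Qprt, Calml4 and Pipox, given above, and also Cldn10 and Cldn2, claudins of tight junctions, Pth1r, the parathyroid hormone receptor, Lpl, the lipoprotein lipase, and Car4, a membrane carbonic anhydrase (Cldn2, Lpl and Car4 were chosen after their values were seen). Cldn10 was at 1.89 to 28.7 TPM in the high and 0.03 to 0.60 TPM in the low class (log2 difference 3.03, SE 0.43), and Pth1r at 5.10 to 54.8 TPM against 0.96 to 3.89 TPM (log2 difference 2.49, SE 0.38), each with a limma adjusted p of 0.0129. The smallest difference that passed was that of Ifi30, a thiol reductase of antigen processing, at 76.8 and 64.6 TPM (log2 difference 0.23, limma adjusted p 0.0400).

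Thick ascending limb transcripts were high in some of the tubules. The limb's markers were higher in 8 of 8 members, 4 of them at an unadjusted p under 0.05 and none past the threshold, and their summed level was 48.2 to 2149 TPM in the high class (median 73.2) and 34.0 to 57.2 TPM in the low class. WT4_1, WT3_2 and MUT3_3 had sums of 2149, 998 and 454 TPM. Umod, the uromodulin of that segment, was at 1389, 708 and 280 TPM in those tubules and at 15.8 to 35.2 TPM in the other high-score ones. Slc12a1, the cotransporter that defines the limb, was at 0.00 to 0.41 TPM in the low class. The middle tubule WT1_1 had the highest sum of all 24, 5004 TPM, and there Cldn10 was at 83.1 TPM and Pth1r at 71.8 TPM, above every high-score tubule. Ggt1 (112 TPM), Lpl (47.9), Car4 (32.1), Slc1a1 (7.01) and Nr1h4 (6.14) were above the high-score median there too, and the other 41 genes were not.

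With a limb score as a further covariate 41 of the 48 remained past the threshold, including Ggt1, Cldn10, Pth1r, Lpl and Slc1a1. The 7 lost were Car4 (adjusted p 0.145), Nr1h4 (0.0861), Fbp1 (0.0518), Fmo1 (0.0638), Myo15b (0.0694), Pyroxd2 (0.0605) and BC024386 (0.205), all from limma. Their log2 differences stayed between 1.40 (Myo15b) and 3.76 (Fbp1), against 1.45 and 3.31 for these genes without the covariate. Without WT3_2, WT4_1 and MUT3_3, an alternative chosen after seeing the data, 46 of the 48 passed, all but Car4 and Myo15b.

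Blood transcripts stood out in a single tubule. Erythrocyte markers summed to 24918 TPM in WT3_2 and to 1.48 to 203 TPM in the other high-score tubules, against 0.62 to 219 TPM in the low class, and 5 of 5 were higher with none at an unadjusted p under 0.05 (median log2 difference 1.39, and -0.27 with a score of Kap alone). Without WT3_2 alone, 23 of the 48 genes passed, and the part of these transcripts in the results was not tested further. Macrophage and leukocyte markers were higher in 13 of 13 members, with none at an unadjusted p under 0.05 and a median log2 difference of 0.78, which was -0.08 in pairs of the highest and the lowest tubule of each mouse and 1.60 with the mouse as a fixed block. Their sums, 257 to 1781 TPM and 87.4 to 1266 TPM, overlapped.

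Markers of the distal convoluted and connecting tubule were higher in 7 of 7 members with a median of 0.20, which was -0.10 in pairs within each mouse, and none had an unadjusted p under 0.05. Klk1, the kallikrein of the connecting tubule, was at 2114 TPM in WT4_1 and 88.2 to 519 TPM in the other high-score tubules. Slc12a3, the cotransporter of the distal convoluted tubule, was at 20.3 TPM in MUT4_1 and 9.84 TPM in WT4_1 but at 1.20 TPM or less in the other high-score tubules.

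Principal cell markers were lower in the high-score tubules in 10 of 12 members, of which 7 had an unadjusted p under 0.05 and none passed the threshold (median log2 difference -0.21). Of all 15010 genes tested 8877 were lower, and 884 (5.89%) were lower at an unadjusted p under 0.05. Aqp2 was at 10956 to 16325 TPM in the high class with a median of 14436 TPM, and at 11364 to 27066 TPM in the low class with a median of 22142 TPM. The classes overlapped (log2 difference -0.36, SE 0.17, limma adjusted p 0.507). With median-ratio scaling the log2 difference of Aqp2 was -0.33. With quantile normalization it was -0.03, but that scaling gives each rank the same value in every library. It therefore narrows in advance the difference of a gene that is among the most abundant in all tubules. Aqp4, the water channel of the basolateral membrane, was at 111 and 261 TPM (log2 difference -0.92, SE 0.30, limma adjusted p 0.277). Fxyd4, a regulator of the sodium pump, was at 5376 and 6875 TPM, while Scnn1a and Scnn1b, subunits of the sodium channel, were at 423 and 412 TPM and at 1133 and 1107 TPM.

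For these duct genes class and mouse cannot be told apart. The 5 low-score tubules of mice WT2 and MUT1 had 21208 to 27066 TPM of Aqp2, and the middle tubule WT2_3 of the same WT mouse had 30070 TPM. The other 3 low-score tubules had 11364 to 17491 TPM. Within mouse WT3 the high-score tubules had 14888 and 13983 TPM and the low-score one 17491 TPM, and within mouse MUT3 the order was the reverse, 12525 against 11364 TPM. With the mouse as a fixed block the log2 difference of Aqp2 was -0.10.

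**Figure D4:**
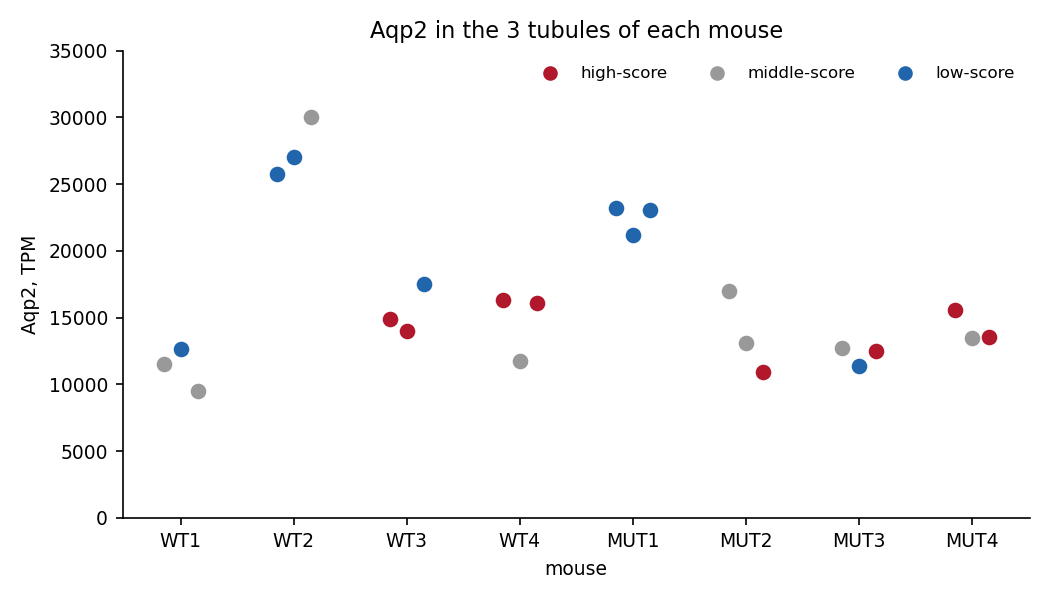
Aqp2 in TPM in the 3 tubules of each of the 8 mice, 1 point per tubule, coloured by score class. The tubules of mice WT2 and MUT1 lie at 21208 to 30070 TPM (5 low-score and 1 middle), and those of the other 6 mice at 9501 to 17491 TPM.

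Intercalated cell markers shared by both types showed little difference, with 5 of 9 higher and a median of 0.016, which was -0.075 with the mouse as a fixed block. Rhcg, an ammonia channel, was at 2501 and 2723 TPM and Car2, the cytosolic carbonic anhydrase, at 2379 and 2361 TPM. Type A markers were lower in 5 of 5, of which 4 had an unadjusted p under 0.05 and none passed (median -0.30). Slc4a1, the basolateral anion exchanger of type A cells, was at 387 and 514 TPM and Kit at 211 and 240 TPM. Type B markers were higher in 4 of 4, none at an unadjusted p under 0.05 (median 0.13, and -0.15 in pairs within each mouse), with Slc26a4, the apical exchanger pendrin, at 1757 and 1593 TPM and Spink8 at 1156 and 1019 TPM. Transcription factors of the collecting duct were lower in 10 of 11, of which 5 had an unadjusted p under 0.05 and none passed (median -0.12), including Tfcp2l1, a regulator of intercalated fate, at 458 and 507 TPM and Hoxd8 at 244 and 281 TPM. Beside these counts, 8877 of all 15010 genes tested were lower, 884 of them at an unadjusted p under 0.05.

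The 3 genes that passed downwards had small differences. Phf20, which encodes a reader of histone methylation, was at 11.0 to 20.5 TPM in the high and 18.5 to 37.1 TPM in the low class (log2 difference -0.76, SE 0.14, limma adjusted p 0.0366). Xrn1, an exoribonuclease of messenger decay, was at 5.30 to 8.18 TPM against 7.73 to 11.4 TPM (log2 difference -0.54, SE 0.10, limma adjusted p 0.0391). Pnrc1, a nuclear receptor coactivator, was at 112 to 124 TPM against 123 to 146 TPM (log2 difference -0.18, SE 0.035, limma adjusted p 0.0400). All 3 overlapped between classes, and for 2 of them the middle mean lay between the class means. None of the 3 passed with the limb covariate, with the score without Kap or with no filter. The lower genes that passed in those fits were therefore other genes.

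A difference between genotypes in the change with the score was not detected. No gene passed in limma's test of the difference between the WT and the MUT contrast (lowest adjusted p 1, 496 of 15010 genes at an unadjusted p under 0.05). With the mouse as a fixed block 41 genes passed that test. There it set mouse WT3 against mouse MUT3, the only mice with both classes, so it cannot tell genotype from animal. Without mouse MUT1, tubule MUT3_2 was the only low-score MUT tubule left, so that fit cannot decide on a difference between genotypes. The 3 smallest p-values were those of Gm10157, a predicted gene, Rps19-ps9, a ribosomal pseudogene whose reads a near-identical parent can share, and Cops4, a subunit of the COP9 signalosome, which had log2 differences of 0.92, 0.50 and -0.15 in WT and of -1.30, -0.98 and 0.08 in MUT. The 48 genes were higher in 48 of 48 cases in each genotype alone, with medians of 3.06 in WT and 1.69 in MUT. They had been selected on these same tubules. Of all 15010 genes tested, 6168 were higher in WT alone and 6522 in MUT alone. The mean score differed between classes by 4.06 in WT and by 2.69 in MUT, so the classes themselves were closer together in MUT.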

How the data were processed

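PolyA RNA of single microdissected cortical collecting ducts was extracted with a Zymo kit and made into cDNA with the SMART-Seq V4 kit, per the labels' protocols. The authors deposited TPM for 55416 genes in 24 libraries, each summing to the same total, so depth, and any interval that needs it, is unknown. The aligner STAR, RSEM 1.3.3 and the build GRCm39 stand in the submitters' processing notes without role or order. Filters and annotation release: not given in the sources used here.

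From the deposited TPM, log2(TPM + 1) was computed, which understates the change of low genes. Genes with a mean of 1 TPM or more over the 24 libraries, without the 3 score genes, were fitted with limma 3.58.1 in R 4.3.3 (empirical Bayes with trend, genotype as covariate, mouse as random effect with an estimated correlation of 0.27, Benjamini-Hochberg over 15010 genes, two-sided). A symbol shared by several genes went to the one with the highest mean. The difference between genotypes was an interaction term. In fits that leave out 1 tubule or 1 mouse the correlation was held at its estimate from all 16 tubules, and in the other random-effect fits it was estimated anew. The fit was tested on 1 simulated set, in which the share of false calls was above the threshold used. Tubules of 1 mouse are not independent.

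The classes, the 25 gene lists and the tests were chosen with earlier results of these data known. Named genes are the score genes and Aqp2, the 12 passing genes with the largest log2 difference and the 8 others with the smallest p, up to 10 lower genes with the smallest p, for each list the 2 members with the highest mean TPM and up to 2 passing members with the largest difference, and 3 genes for the genotype test. Other list members and passing genes that the text names were chosen after their values were seen. Some genes that this rule names are not reported here. Promoter windows are RefSeq's, matched by symbol, on a build other than that of the TPM, and serve for their letters and their own coordinates only. Alternatives were other pseudocounts, filters, scalings, class sizes, scores, mouse terms and covariates, each genotype alone, and leaving out each tubule and each mouse. A replicate number shared between WT and MUT mice pairs no animals.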

Additional observations from a re-analysis of the deposited data

Results flagged for a closer look

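In 160 checks of named genes within a class of 8 tubules, a tubule stood apart from the others by Dixon's criterion in 8, which chance alone gives in about 1 of 20 checks. In the low class WT3_3 was the highest tubule for Ugt3a2 at 1.49 TPM, for Qprt at 0.71 TPM and for Nr1h4 at 0.55 TPM, and the lowest for Plvap, an endothelial gene, at 40.9 TPM. In the high class WT3_1 was highest for Slc22a6, the organic anion transporter of the S2 segment, at 96.6 TPM, MUT2_3 was highest for Cyp7b1 at 65.4 TPM and lowest for S100g, a calcium-binding protein, at 31.4 TPM, and WT3_2 was highest for Hba-a1, a globin, at 7450 TPM. Among the middle tubules, which the comparison did not use, thick ascending limb markers summed to 5004 TPM in WT1_1 and to 271 TPM in MUT4_2, above the 34.0 to 57.2 TPM of the low class.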

How the results depend on the processing

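All of the 48 higher genes that an alternative tested kept their direction in 44 of 44 alternatives. All had an unadjusted p under 0.05 in 43, the exception being the pairs within each mouse with 46 of 48. The 48 were selected on these same tubules, which most alternatives fit again. This agreement was therefore favoured in advance and is no independent support. The number past the adjusted threshold depended on the setting. Higher and lower genes numbered 48 and 3 as reported. They numbered 87 and 6 with a pseudocount of 0.1, 0 and 0 with 5 (1426 at an unadjusted p under 0.05), 20 and 1 with no filter, 14 and 1 with a filter at 10 TPM, 84 and 13 with tubules as independent, 2 and 0 with 3 tubules per class and genotype, 4 and 0 with 6, 255 and 25 with the continuous score, 79 and 9 with the limb covariate, 0 and 0 in pairs of the highest and the lowest tubule of each mouse (885), 1 and 0 in WT alone and 0 and 0 in MUT alone (1053). With median-ratio scaling they numbered 48 and 2. The score without Kap gave 70 and 2, and Kap alone 0 and 0 (1309). With the replicate block, mouse as a fixed effect, they numbered 0 and 0 (967 genes at an unadjusted p under 0.05). In the genotype test 41 genes then passed, but with that block it compares mouse WT3 with mouse MUT3 alone. That test gave 1 gene with 3 tubules per class, with Kap alone and, as chosen after seeing the data, without WT3_2, WT4_1 and MUT3_3. Among alternatives chosen after seeing the data, higher and lower genes numbered 99 and 8 without those 3 tubules, 2 and 0 without WT3_1 and WT3_2, and 41 and 3 with the filter set on the middle tubules.

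Leaving out 1 tubule or 1 mouse gave 0 to 92 higher genes, 0 to 7 lower genes and 0 to 33 genes that differed between genotypes. Higher genes numbered 0 without WT3_3, 19 without WT1_2, WT2_1 or WT4_3, 25 without WT2_2 or MUT1_1, 27 without MUT1_2, 28 without WT3_2, 31 without MUT1_3 and 92 without MUT3_3. Without mouse WT2, MUT1 or MUT4 they numbered 0, without WT3 2, without WT4 15, without WT1 19 and without MUT3 75. The cause was not tested. The median-ratio and quantile scalings moved the median of all genes by less than 0.1. The log2 difference of Aqp2 was -0.33 and -0.03 with them, against -0.36 as reported. The value of -0.03 was favoured in advance, because quantile scaling gives each rank the same value in every library. Depth is unknown in TPM, which limits what a value near 0 can show.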

Other observations

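Immediate early genes, which respond to handling and to signals within minutes, were lower in the high-score tubules in 13 of 17 members, with a median log2 difference of -0.29, 1 at an unadjusted p under 0.05 and none past the threshold. Of all 15010 genes tested 8877 were lower. Fos was at 1034 TPM in the high and 1343 TPM in the low class and Junb at 827 and 1117 TPM. The lower Myc (5.54 against 11.1 TPM, log2 difference -0.95) was the member with the unadjusted p under 0.05. Their summed level overlapped widely, from 1828 to 10006 TPM and from 3726 to 10973 TPM. Tubule injury genes were split, with 2 of 4 higher and a median of 0.16. Spp1 was at 566 and 485 TPM and Clu at 387 and 245 TPM, and Clu had an unadjusted p of 0.0305, while Lcn2 was at 73.2 and 138 TPM.

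Endothelial markers had a median log2 difference of 0.08 with 6 of 10 higher, which was -0.36 with a score of Kap alone, and Plvap was at 110 and 127 TPM and Emcn at 42.7 and 39.7 TPM. Of the fibroblast and pericyte list 2 of 9 genes were tested, and Dcn was at 70.5 and 48.0 TPM and Col3a1 at 1.72 and 1.25 TPM. Of the podocyte list 3 of 6 were tested, with a median of -0.09 that changed sign in 12 of 44 alternatives (up to 0.28), and Podxl was at 2.50 and 2.67 TPM. None of these 15 genes had an unadjusted p under 0.05. The summed TPM of the 48 higher genes was 295 to 4499 in the high-score tubules and 94.5 to 257 in the low-score ones, which is at most 0.45% of all transcripts. That sum leaves out the score genes and the proximal genes that did not pass, such as Gpx3. The genes of all proximal lists summed to 2272 to 12135 TPM in the high and 1934 to 2604 TPM in the low class.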
